A study of Mus musculus with 2 samples.

Results

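The genes Gzma, Gzmb, Gzmk, Gzmm, Prf1, Nkg7, Ifng, Fasl, Eomes and Klrd1 were followed across the T cells and natural killer (NK) cells of control and irradiated (IR) mouse parotid glands (PG). They were taken by symbol from the features that both count matrices list, and all 10 symbols were found among 48825 features.

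Cytotoxic lymphocytes kill by releasing granules onto a target cell. Perforin, encoded by Prf1, opens the target membrane to the granzymes, a family of serine proteases that includes Gzma and Gzmk, which cut after basic residues, Gzmb, which cuts after aspartate, and Gzmm, which cuts after methionine or leucine. Nkg7 encodes a protein of the granule membrane that is needed for their release. Fasl encodes the ligand of the death receptor Fas, Ifng encodes interferon gamma, Eomes encodes a T-box transcription factor of NK cells and CD8 T cells, and Klrd1 encodes CD94, which pairs with the NKG2 family of lectin-like receptors.

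Glands of C3H female mice, an inbred strain with no transgene or deletion named in the labels or methods, were dissociated enzymatically at 37 °C and sequenced on the 10x Chromium platform. Control mice were not irradiated, and mice of both groups were about 1 year old at collection. IR mice received 6 Gy to the head and neck on each of 5 days, 30 Gy in total, at 6 to 10 weeks of age, and their glands were collected 10 months later. Each condition was 1 library that pooled the glands of 2 mice, so the difference between conditions has no replicate check, no test was made between them, and the intervals given below are 95% exact intervals that cover counting error only.

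After cells with fewer than 200 genes or more than 5% mitochondrial UMIs (unique molecular identifiers, each standing for 1 captured RNA molecule) were left out, 3378 control and 5286 IR cells remained, with a median of 2907.5 and 2461.5 UMIs. Of these, 1246 control and 2949 IR cells fell into T-cell and NK clusters. Of the barcodes, 3 occurred among the kept cells of both libraries. RNA of secretory cells was present throughout, and a list of 16 abundant secretory genes reached 56419 CPM (UMIs of a gene scaled to 1000000 UMIs) in control and 48076 CPM in IR T and NK cells together. Levels below are CPM over all UMIs of a class, and because the chemistry counts transcript ends, CPM of different genes are set side by side as counts and not per length.

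The classes were made from clusters built without the 10 genes, so none of them defined a class. The NK-like class held 34 control and 82 IR cells and 6 of 8 NK markers passed (Ncr1, the natural cytotoxicity receptor NKp46, among its leading genes), with 390 and 518 UMIs of the NK markers beside 193 and 386 UMIs of a list of 8 T-cell markers and 0 and 1 UMIs of 6 macrophage markers. The effector/memory CD8-like class joined clusters 5 and 7, in which 4 and 7 of 7 markers passed, and held 202 control and 381 IR cells. The other classes were naive-like CD8 (131 and 311 cells), gamma-delta-like (53 and 55), helper-like (115 and 231), regulatory-like (103 and 299) and naive-like CD4 cells (375 and 670). A further 3 T-cell clusters, numbered 1 (74 and 540 cells), 3 (118 and 319) and 10 (41 and 61), stayed unnamed because their markers did not fix a class. Acinar genes led cluster 10. B-like cells (836 and 839, with median depths of 2538.5 and 2181 UMIs) gave the background for shares of cells with a UMI.

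Upstream sequences of the 4 granzyme genes are shown because these genes, close relatives by sequence and function, were counted in different classes of the same glands. The sequences are the 250 bases before each start in RefSeq (GRCm38.p6), from the reference strain and not from C3H, and are written 5′ to 3′ on the strand of the gene. Capitals mark matches on either strand to GGTGTGA, a core T-box motif, or TGTGGT, a core RUNX motif, and the motifs do not overlap. Gzmm has 2 starts in RefSeq. The Gzmk window lies inside the longer GENCODE span of Gzmk given below.
Gzma chr13:113100982-113101231, minus strand: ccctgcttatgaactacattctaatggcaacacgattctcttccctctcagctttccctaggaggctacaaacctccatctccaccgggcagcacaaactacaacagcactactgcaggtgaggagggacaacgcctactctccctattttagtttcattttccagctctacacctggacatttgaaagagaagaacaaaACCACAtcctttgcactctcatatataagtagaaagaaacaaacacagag
Gzmb chr14:56262335-56262584, minus strand: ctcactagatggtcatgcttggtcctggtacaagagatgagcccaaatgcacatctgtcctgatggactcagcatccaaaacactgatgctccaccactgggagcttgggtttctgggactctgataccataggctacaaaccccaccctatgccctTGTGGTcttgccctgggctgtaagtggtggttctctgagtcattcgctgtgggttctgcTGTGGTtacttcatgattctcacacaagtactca
Gzmk chr13:113180966-113181215, minus strand: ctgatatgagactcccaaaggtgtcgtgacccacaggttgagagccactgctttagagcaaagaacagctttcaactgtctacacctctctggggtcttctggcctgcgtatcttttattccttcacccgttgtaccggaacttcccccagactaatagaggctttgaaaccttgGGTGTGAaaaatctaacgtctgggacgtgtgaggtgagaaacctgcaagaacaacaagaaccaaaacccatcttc
Gzmm chr10:79688770-79689019, plus strand: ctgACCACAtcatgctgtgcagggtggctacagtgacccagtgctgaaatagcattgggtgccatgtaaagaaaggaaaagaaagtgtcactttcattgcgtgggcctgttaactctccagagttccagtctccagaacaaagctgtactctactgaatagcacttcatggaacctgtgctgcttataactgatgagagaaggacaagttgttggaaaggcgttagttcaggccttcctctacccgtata
Gzmm chr10:79693576-79693825, plus strand: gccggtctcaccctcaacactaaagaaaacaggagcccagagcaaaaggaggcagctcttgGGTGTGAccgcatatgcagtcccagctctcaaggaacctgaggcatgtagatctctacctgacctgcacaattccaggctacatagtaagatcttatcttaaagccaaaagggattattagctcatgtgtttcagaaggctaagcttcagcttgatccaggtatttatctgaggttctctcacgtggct

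A T-box match stood 75 bases before the Gzmk start and 189 bases before 1 of the Gzmm starts, and none lay in the Gzma or Gzmb windows. RUNX matches began 50 bases before the Gzma start, 93 and 34 bases before the Gzmb start and 247 bases before the other Gzmm start. Among all 32851 RefSeq promoter windows of the same length, 3.33% held the T-box letters and 14.0% held the RUNX letters. Prf1 and Nkg7 had RUNX matches, Nkg7 also had a T-box match 13 bases before its start, and the windows of Ifng, Fasl and Eomes held neither. Windows were found for 9 of the 10 genes (all but Klrd1).

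Gzma and Gzmk lie 70627 bases apart on chromosome 13, both on the minus strand, at 113093825 to 113100981 and 113171608 to 113225908 of GRCm38 (GENCODE M21). The GENCODE span of Gzmk reaches farther upstream than the RefSeq start used above. That span overlaps Esm1, a gene of endothelial cells on the opposite strand. Gzmb is alone of the 4 on chromosome 14 (56258838 to 56262260, minus strand), and Gzmm is on chromosome 10 (79689020 to 79695261, plus strand). On chromosome 10 are also Prf1 (61297833 to 61304680) and Ifng (118441046 to 118445892), both on the plus strand. The others are Nkg7 (chromosome 7, 43437073 to 43438249, plus strand), Fasl (chromosome 1, 161780689 to 161788495, minus strand), Eomes (chromosome 9, 118478212 to 118486132, plus strand) and Klrd1 (chromosome 6, 129591782 to 129598775, plus strand). Ifng overlaps the transcript Gm49751 on its own strand, and Eomes overlaps Gm33460 on the opposite strand.

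The 4 granzymes were found in different lymphocytes. Gzma was counted mostly in NK-like cells, Gzmm in effector/memory CD8-like cells, Gzmb in gamma-delta-like and NK-like cells, and Gzmk in effector/memory CD8-like cells and, in control, in helper-like cells. Among those helper-like cells with Gzmk, more had Cd8a or Cd8b1 than Cd4, so the class name does not give their lineage. Over all 8664 kept cells of both libraries there were 567 UMIs of Gzma in 59 cells, 346 of Gzmb in 95 cells, 126 of Gzmk in 71 cells and 1112 of Gzmm in 447 cells. Gzma was found in the fewest cells of the 4 genes, although Gzmb and Gzmk had fewer UMIs.

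Of all Gzma UMIs, 95.3% in control (interval 92.4 to 97.3%) and 90.9% in IR (86.4 to 94.3%) lay in NK-like cells. The NK-like level was 2569 CPM (2296 to 2866) in control and 1087 CPM (944.5 to 1245) in IR, against 14.5 CPM (7.75 to 24.9) and 7.45 CPM (3.57 to 13.7) in effector/memory CD8-like cells. NK-like cells thus held 177 times (102 to 335) the CD8-like level in control and 146 times (77.8 to 309) in IR. Naive-like CD8 cells had 0 Gzma UMIs in both libraries, which allows up to 6.38 CPM in control.

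Gzmm showed the opposite order. Effector/memory CD8-like cells held 91.0% of its UMIs in control (88.03 to 93.48%) and 90.5% in IR (88.03 to 92.67%), at 466 CPM (422 to 513) and 442 CPM (407 to 479). In NK-like cells there was 1 Gzmm UMI in control and 3 in IR, and the NK-like level was 0.0172 times that of the CD8-like cells in control (0.000434 to 0.0963) and 0.0353 times in IR (0.00727 to 0.104). Naive-like CD8 cells had 3 and 6 Gzmm UMIs (6.38 and 6.86 CPM).

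**Figure D1:**
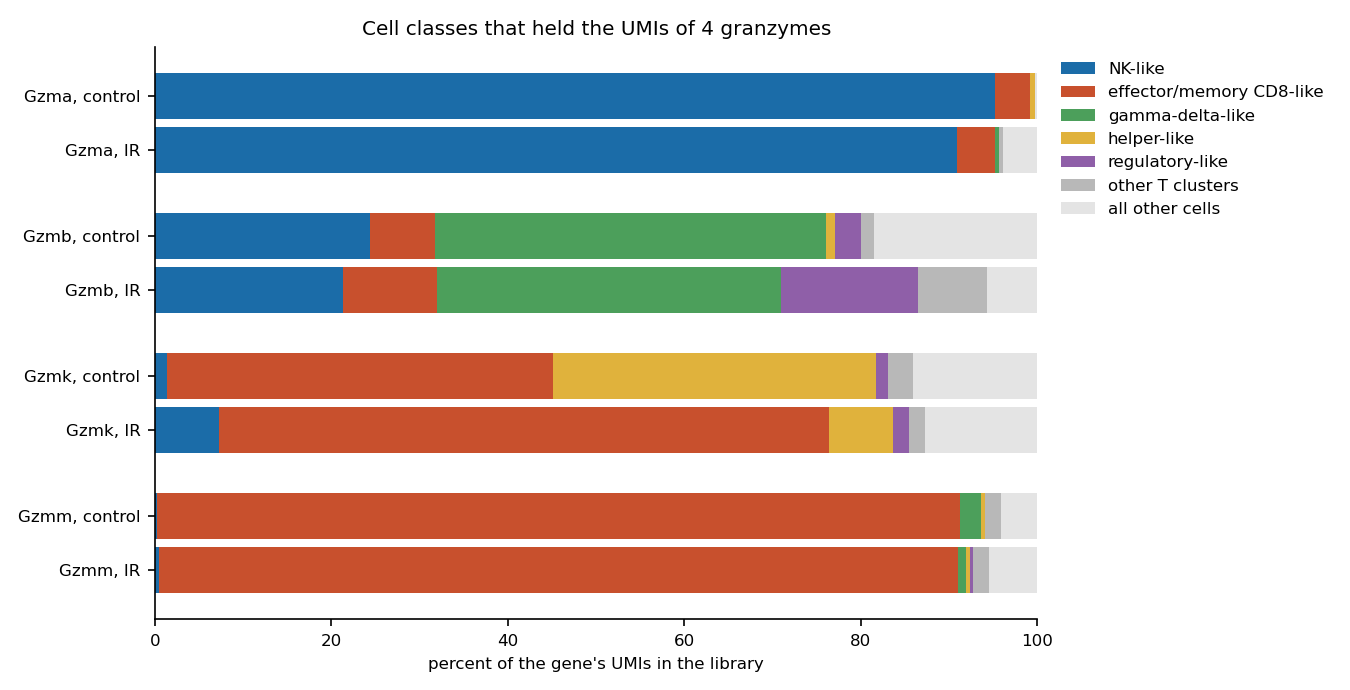
Stacked shares of the UMIs of 4 granzymes (percent, horizontal axis from 0 to 100) by cell class, 1 bar for each gene and library. NK-like cells hold 95.3% and 90.9% of Gzma, and effector/memory CD8-like cells hold 91.0% and 90.5% of Gzmm.

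Gzmb was highest in gamma-delta-like cells, at 462 CPM (372 to 567) in control and 307 CPM (232 to 400.0) in IR, which came to 44.4% and 39.0% of its UMIs. NK-like cells followed at 400.2 CPM (297 to 528) and 156 CPM (105 to 223). These neighbouring levels had overlapping intervals in control and not in IR, where 1 cell held most of the gamma-delta-like UMIs and the class was at 79.7 CPM without it, below NK-like cells. Effector/memory CD8-like cells had 16.8 and 11.2 CPM, so the NK-like level was 23.8 times theirs in control and 14.0 times in IR. A cycling cluster, led by Mki67 and Top2a but also by plasma-cell and red-blood-cell genes, held a further 38 Gzmb UMIs in control.

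Gzmk was low everywhere. Effector/memory CD8-like cells had 34.7 CPM (23.6 to 49.2) in control and 28.3 CPM (20.02 to 38.8) in IR. Helper-like cells had 72.7 CPM (47.5 to 107) in control and 6.18 CPM (1.68 to 15.8) in IR, so the class with the highest Gzmk level was helper-like in control and effector/memory CD8-like in IR. Of all 33 control cells with Gzmk, in any class, 18 had Cd8a or Cd8b1 and 3 had Cd4. NK-like cells had 1 and 4 Gzmk UMIs.

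Lineage genes were also read in single cells, without the clusters. Of the 447 cells with Gzmm, 425 had a Cd3 gene, 308 had Cd8a or Cd8b1 and 1 had Cd4. Of the 71 cells with Gzmk, 69 had a Cd3 gene and 42 had Cd8a or Cd8b1. Of the 59 cells with Gzma, 32 had an NK gene (Ncr1, Klri2 or Tyrobp) and 29 had a Cd3 gene, and of the 34 cells with at least 2 Gzma UMIs, 28 had an NK gene. Of the 95 cells with Gzmb, 74 had a Cd3 gene, 24 had Trdc (the gamma-delta receptor gene) and 8 had Foxp3 (the regulatory T-cell factor).

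The spread over cells differed as much as the class. Gzma was carried by few NK-like cells with many UMIs each: 12 of 34 control cells (35.3%, 19.7 to 53.5%) and 21 of 82 IR cells (25.6%, 16.6 to 36.4%) had a UMI, and 3 and 4 cells held 50% of the UMIs. The 3 highest control cells had 76, 74 and 38 Gzma UMIs and the 3 highest IR cells had 40, 32 and 21. Among cells with Gzma the median was 23.5 UMIs in control and 7 in IR. With each cell thinned to 1000 UMIs, 27.3% of control and 22.4% of IR NK-like cells had Gzma, and NK-like depth differed between libraries (median 3464 and 2169 UMIs). B-like cells had Gzma in 1 of 836 control cells (0.120%) and 0 of 839 IR cells, which allows a share of up to 0.358%.

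Gzmm was spread evenly by contrast, with a UMI in 139 of 202 control effector/memory CD8-like cells (68.8%, 61.9 to 75.1%) and 244 of 381 IR cells (64.0%, 59.0 to 68.9%), and with 40 and 64 cells holding 50% of the UMIs. No cell of the class had more than 10 Gzmm UMIs. Thinned shares were 32.2% and 31.8%, and 0.478% and 0.596% of B-like cells had a Gzmm UMI. Gzmb in gamma-delta-like cells was again uneven, with UMIs in 16 cells of 53 in control and 7 of 55 in IR, and 41 of the 55 IR UMIs lay in 1 cell. Of these Gzmb cells, 15 of 16 and 4 of 7 had Trdc, and 0 of 16 control cells had Prf1. B-like cells had Gzmb in 0 of 836 control and 1 of 839 IR cells.

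**Figure D2:**
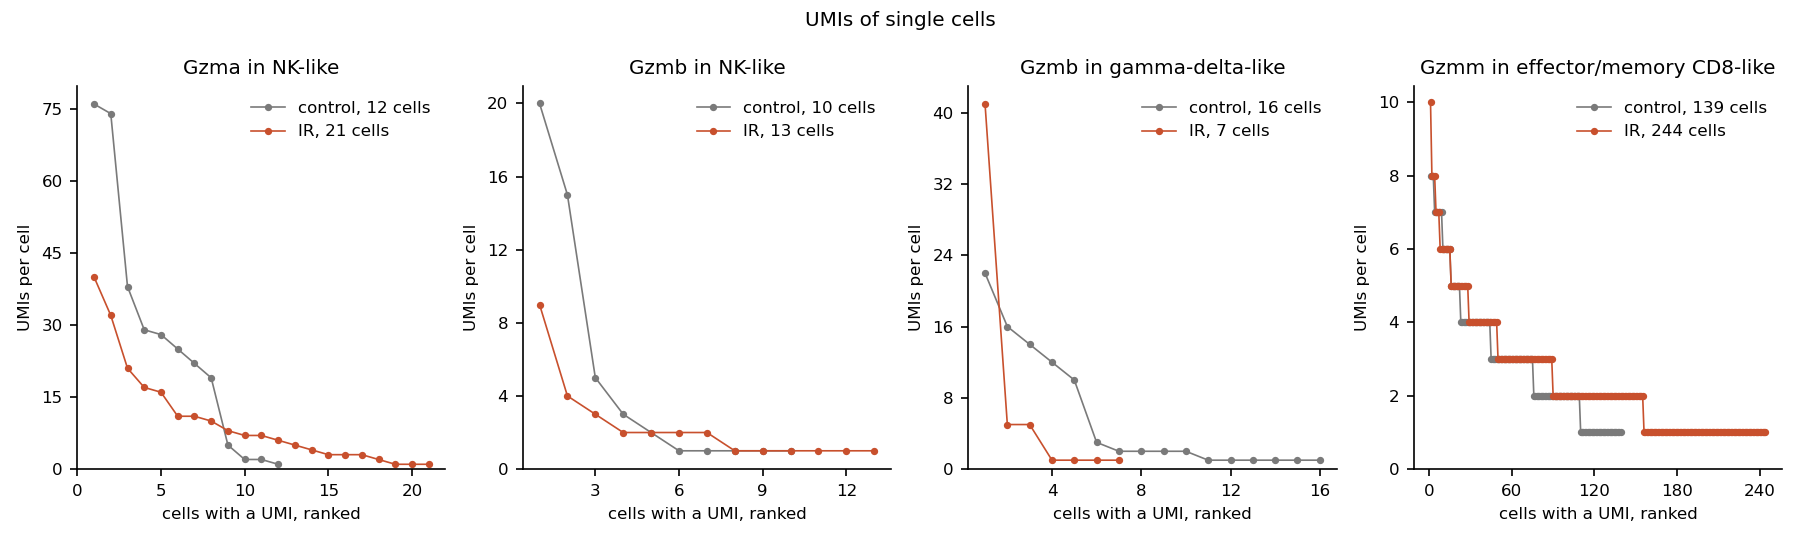
UMIs per cell (vertical axis) of cells with a UMI, ranked (horizontal axis), for Gzma and Gzmb in NK-like cells, Gzmb in gamma-delta-like cells and Gzmm in effector/memory CD8-like cells, with control grey and IR orange. Gzma starts at 76 UMIs in control and 40 in IR and falls steeply, and Gzmm never passes 10 UMIs.

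The other 6 genes were counted in both NK-like and effector/memory CD8-like cells, and some of them in other classes too. In both libraries NK-like cells had the highest level among the 10 lymphocyte classes for Gzma and for all 6 of these genes, which is 7 of 10 genes. Gzmb, Gzmk and Gzmm were the exceptions. Over the alternatives the number of genes highest in NK-like cells was 7 to 8 in control and 6 to 7 in IR. The 10 genes summed reached 5266 CPM in control and 3744 CPM in IR NK-like cells, against 1469 and 1832 CPM in effector/memory CD8-like cells, 383 and 684 CPM in naive-like CD8 cells and 36.1 and 52.4 CPM in naive-like CD4 cells. B-like cells had 21.5 and 42.4 CPM and epithelial cells 0.917 and 2.80 CPM.

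Prf1, the pore-forming protein of the granules, was sparse in every class, with 219 UMIs in 206 cells and at most 3 UMIs in a cell. NK-like cells had 72.0 CPM (32.9 to 137) in control and 93.6 CPM (55.5 to 148) in IR. Effector/memory CD8-like cells had 31.3 CPM (20.8 to 45.3) and 30.5 CPM (21.9 to 41.4), and naive-like CD8 cells 23.4 CPM (11.7 to 41.9) and 29.7 CPM (19.4 to 43.6), so the intervals of the CD8 classes overlapped. B-like cells had Prf1 in 0.359% and 0.477% of cells, against 20.6% and 18.3% of NK-like and 12.9% and 10.2% of effector/memory CD8-like cells.

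Nkg7 was the most abundant of the 10 genes, with 3387 UMIs in 1265 cells. It reached 1313 CPM (1119 to 1530) in control and 1139 CPM (993 to 1300) in IR NK-like cells, and 597 CPM (547 to 649) and 817 CPM (769 to 867) in effector/memory CD8-like cells. Naive-like CD8 cells had 262 CPM (217 to 312) and 515 CPM (468 to 564), so Nkg7 was also counted in naive-like CD8 cells. The unnamed cluster 3 had 194 CPM (153 to 242) and 211 CPM (181 to 244) of Nkg7. A UMI was found in 88.1% and 83.5% of effector/memory CD8-like and in 76.5% and 80.5% of NK-like cells, against 0.718% and 1.79% of B-like cells. After thinning, the shares were 36.1% and 51.6% of effector/memory CD8-like cells, whose median depth was 4404.5 UMIs in control and 3472 in IR.

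Klrd1, the CD94 subunit, was at 368 CPM (270 to 491) in control and 509.6 CPM (414 to 621) in IR NK-like cells, and at 156 CPM (131 to 184) and 219 CPM (195 to 245) in effector/memory CD8-like cells. Naive-like CD8 cells had 78.7 and 102 CPM, and the unnamed cluster 3 had 96.8 and 147 CPM. It was also counted outside lymphocytes, in dendritic-like cells: 22 UMIs in 14 of 45 control cells and 51 UMIs in 31 of 88 IR cells, at 79.3 CPM (49.7 to 120) and 97.8 CPM (72.8 to 129). These levels had intervals overlapping those of naive-like CD8 cells.

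Eomes was at 216 CPM (142 to 314) in control and 364 CPM (284 to 460) in IR NK-like cells and at 75.0 CPM (58.1 to 95.2) and 99.8 CPM (83.6 to 118) in effector/memory CD8-like cells. Fasl was at 120 CPM (67.2 to 198) and 125 CPM (80.0 to 186) in NK-like cells and at 61.6 CPM (46.4 to 80.1) and 104 CPM (87.7 to 123) in effector/memory CD8-like cells, with overlapping intervals in both libraries. Ifng was at 192 CPM (123 to 286) and 234 CPM (171 to 313) in NK-like cells and at 17.9 CPM (10.2 to 29.1) and 73.7 CPM (59.9 to 89.7) in effector/memory CD8-like cells. Helper-like cells had 53.1 CPM of Ifng in control (19 UMIs) and 58.7 CPM in IR (38 UMIs), above effector/memory CD8-like cells in control only. Of the 24 control Ifng UMIs in NK-like cells, 16 lay in 1 cell.

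**Figure D3:**
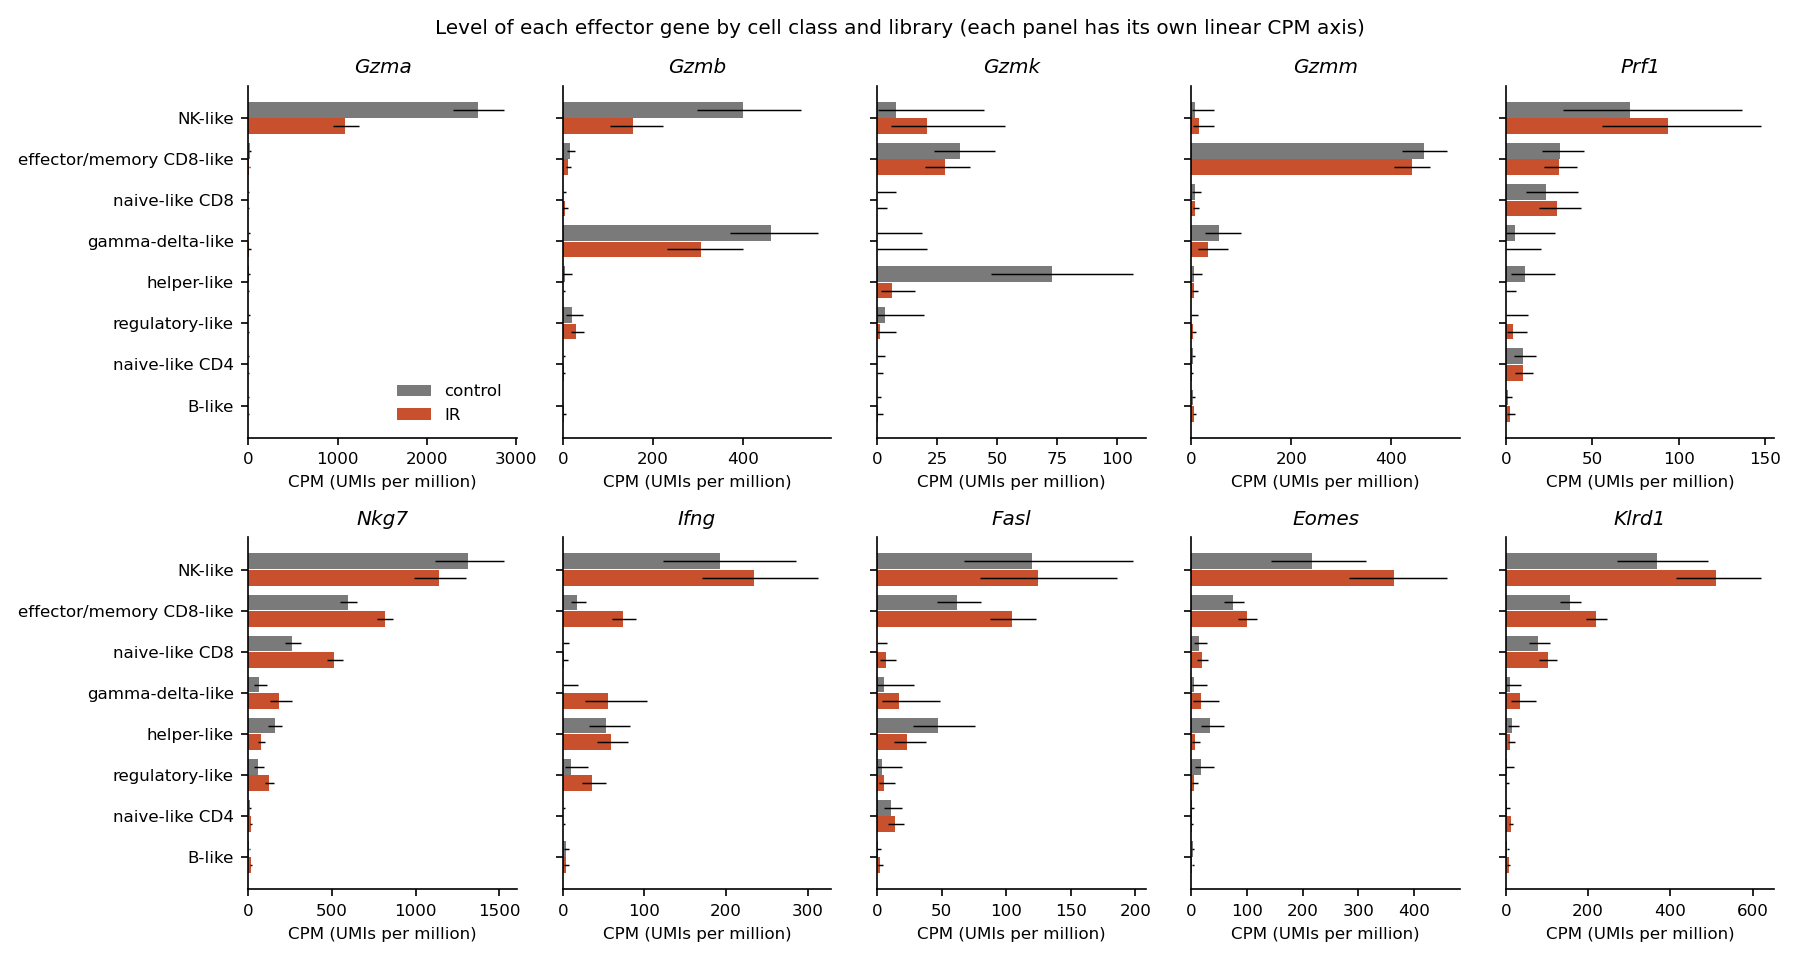
Level of each of the 10 genes (CPM, a linear horizontal axis from 0 that differs between panels) by lymphocyte class, with B-like cells as background, for control (grey) and IR (orange), and 95% counting intervals as bars. NK-like cells are highest for 7 genes in each library, Gzmm peaks in effector/memory CD8-like cells (466 and 442 CPM) and Gzmb in gamma-delta-like cells (462 and 307 CPM). In IR gamma-delta-like cells, 41 of the 55 Gzmb UMIs lay in 1 cell.

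Within a class, the genes did not all mark the same cells. Among NK-like cells, Eomes was present in 10 of 12 control cells with Gzma (83.3%) and 4 of 22 without it (18.2%), and in IR in 13 of 21 (61.9%) and 23 of 61 (37.7%). The cells with Gzma were not deeper, with medians of 3061 against 3603.5 UMIs in control and 1743 against 2246 in IR. Ifng was present in 1 of 12 and 7 of 21 cells with Gzma, and in 4 of 22 and 17 of 61 cells without it.

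Among effector/memory CD8-like cells, Gzmm was present in 3 of 14 control cells with Gzmk (21.4%) and 136 of 188 without it (72.3%), and in IR in 10 of 28 (35.7%) and 234 of 353 (66.3%). The cells with Gzmk were shallower, with medians of 3013.5 against 4444 UMIs in control and 2899 against 3485 in IR, which leaves fewer chances of a Gzmm UMI, and the part of depth was not tested. Ifng was present in 5 of 14 and 7 of 28 cells with Gzmk, and in 7 of 188 and 51 of 353 cells without it. Cells that share a library share depth and ambient RNA, so these counts are a description.

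Cells with pairs of the genes were few, apart from the pairs with Nkg7. Gzma and Gzmb were seen together in 6 control and 6 IR T and NK cells, Gzma and Gzmk in 2 and 2, Gzmb and Prf1 in 1 and 7, and Gzmk and Eomes in 11 and 9. Nkg7 and Klrd1 were seen together in 150 and 318 cells, and Nkg7 and Ifng in 19 and 85. At least 3 of the 10 genes had UMIs in 64.7% (control) and 62.2% (IR) of NK-like cells, in 58.9% and 60.9% of effector/memory CD8-like cells and in 13.0% and 10.4% of all T and NK cells.

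Genes of the same pathway were compared between NK-like and effector/memory CD8-like cells from lists of granule, receptor, factor and chemokine genes. Serpinb9, an inhibitor that guards killer cells from granzyme B, was 6.18 times (4.48 to 8.49) higher in NK-like cells in control and 9.07 times (6.80 to 12.1) in IR, and its relative Serpinb6b 5.19 and 5.29 times. Srgn, the proteoglycan core that holds granzymes in the granule, was 1.29 times (1.12 to 1.48) and 1.94 times (1.75 to 2.15) higher, and Cst7, a cathepsin inhibitor, was at 0.908 times (0.376 to 1.90) and 0.388 times (0.164 to 0.785). Ctsc, the cathepsin that activates granzymes, was 2.29 times (1.25 to 4.02) and 2.09 times (1.25 to 3.36) higher.

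Among the factors, Id2 was 16.3 times (11.3 to 23.7) and 9.52 times (7.07 to 12.9) higher in NK-like cells, Zeb2 13.0 times (5.94 to 30.04) and 4.95 times (2.49 to 9.60), and Runx3 2.79 times (1.96 to 3.93) and 2.09 times (1.58 to 2.74). Of the chemokines, Ccl5 was at the same level in both classes within counting error (1.03 times, 0.958 to 1.12, and 0.987 times, 0.927 to 1.05), whereas Xcl1 was 10.3 times (7.19 to 14.8) and 15.03 times (10.96 to 20.8) higher in NK-like cells. Ncr1 had 31 and 78 UMIs in NK-like cells and 0 and 0 in effector/memory CD8-like cells. It is an NK marker used to name the class, so this difference is no independent result. Only the 10 genes were kept out of the clustering, so the other listed genes could help draw the classes compared. Ccl5, for one, was among the leading genes of cluster 5. The ratios of these genes are therefore a description of the classes.

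Of the granzyme genes outside the 10, Gzmd, Gzme, Gzmf, Gzmg and Gzmn had 0 UMIs in both classes and libraries, and Gzmc was counted. It had 4 UMIs in 2 of 34 control NK-like cells (32.0 CPM, 8.72 to 82.0) and 57 UMIs in 8 of 82 IR cells (296 CPM, 225 to 384), with 3 and 0 UMIs in effector/memory CD8-like cells. Its IR level in NK-like cells was above that of Gzmb there (156 CPM). Gamma-delta-like cells had 20 Gzmc UMIs in 3 of 53 control cells (101 CPM, 62.0 to 157) and 21 UMIs in 4 of 55 IR cells (117 CPM, 72.6 to 179).

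The genes whose levels ran most nearly in parallel over the 20 points given by 10 lymphocyte classes and both libraries, by Pearson's r of log2(CPM + 10) among 9002 genes, were Klrk1 (0.934, encoding NKG2D), Ctsw (0.923, cathepsin W), Tm6sf1 (0.890), Zyx (0.887) and Klrc2 (0.871) for the 10 genes summed. Gzma ran with NK genes: Klra3 (0.994), Nrgn (0.987), Fcer1g (0.975), Ncr1 (0.974) and Tyrobp (0.961). For Gzma, 2 of the 20 points, the NK-like ones, lay far above the rest. The genes just named also lead the cluster that was named NK-like, so the likeness repeats how that class was drawn. Gzmb ran with Myo1e (0.947), Smim3 (0.946), the MHC class II genes H2-Eb1 (0.932) and H2-Ab1 (0.928), which antigen-presenting cells express, and Dkkl1 (0.923). The gamma-delta-like class, where Gzmb was highest, also held the most B-cell marker RNA of the T and NK classes (365 CPM in control and 497 CPM in IR). Its part in this likeness was not tested. Gzmk had the weakest likeness of those computed, with Ugp2 (0.766), Trim16 (0.708), Ccl5 (0.700), Socs3 (0.695) and Tm2d2 (0.687), and Ifng ran with Bhlhe40 (0.892), Itgb1 (0.874), Nfatc1 (0.873), 1190002N15Rik (0.871) and Runx2 (0.869). The points share library and depth, and no test was made.

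IR over control, the 10 genes summed were at 0.951 times the control level (0.907 to 0.998) in all T and NK cells together, at 604 and 635 CPM. The genes differed in direction: Gzma (0.353 times, 0.297 to 0.420), Gzmb (0.428 times, 0.338 to 0.540) and Gzmk (0.423 times, 0.283 to 0.627) were lower in IR, and Ifng was higher (1.91 times, 1.43 to 2.57). Of the 10 genes, 3 were at least 2 times lower, where 1.51% of all 10979 genes with at least 20 UMIs were, and 0 were at least 2 times higher, where 5.62% of all genes were. Class sizes differed between the libraries. Unnamed cluster 1, with 74 control and 540 IR cells, had only 51.1 and 58.8 CPM of the 10 genes summed. With IR classes given their control weights, the sum was 1.11 times the control, Gzma 0.429 times, Gzmb 0.628 times and Gzmk 0.507 times. So weighted, Gzmb and Gzmk were no longer at least 2 times lower. These weights were chosen after seeing the data.

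**Figure D4:**
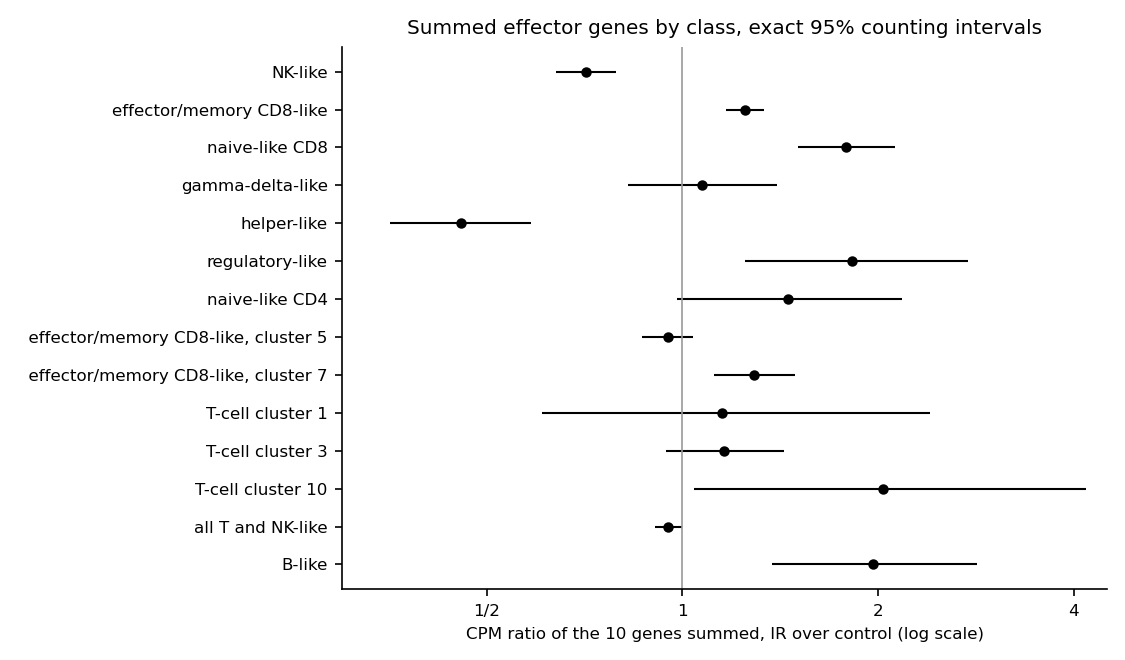
IR over control ratio of the 10 genes summed (log axis) in each lymphocyte class, in both clusters of the effector/memory CD8-like class, in all T and NK cells and in B-like cells, as points with 95% counting intervals. Helper-like (0.457) and NK-like cells (0.711) lie below 1, and effector/memory CD8-like (1.25), naive-like CD8 (1.79) and regulatory-like cells (1.83) lie above, as do B-like cells (1.97).

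In NK-like cells Gzma and Gzmb were lower in IR and Eomes was higher, and Gzmk and Gzmm had at most 4 UMIs in a library. The sum was 0.711 times the control (0.639 to 0.791), and without Gzma the other 9 genes were at 2697 CPM in control and 2657 CPM in IR, 0.985 times (0.857 to 1.13). Gzma had 321 control UMIs and 209 IR UMIs, which gave 0.423 times (0.354 to 0.505), and Gzmb had 50 and 30 UMIs, which gave 0.390 times (0.239 to 0.625). Eomes had 27 and 70 UMIs and was 1.68 times higher (1.07 to 2.73). The intervals of Nkg7 (0.868 times, 0.705 to 1.07), Klrd1 (1.38 times, 0.966 to 2.01), Fasl (1.04 times, 0.523 to 2.13), Prf1 (1.30 times, 0.554 to 3.28) and Ifng (1.22 times, 0.727 to 2.09) held 1.

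Gzma and Gzmb made 2 of 8 genes with enough UMIs at least 2 times lower in IR, where 3.38% of all genes were, and 0 of 8 were at least 2 times higher, where 8.0% of all genes were. Without the NK-like cell of each library with the most UMIs of the gene, Gzma was at 0.445 times (0.364 to 0.544) and Gzmb at 0.451 times (0.246 to 0.815), and Ifng was at 2.97 times (1.36 to 7.39). The 16 secretory genes were at 87232 CPM in control and 51114 CPM in IR NK-like cells, and with these and other abundant genes left out of the total Gzma was at 0.408 times. The T-cell marker list was at 1545 and 2007 CPM in this class, and its part in the granzyme difference was not tested. Of the pathway genes in NK-like cells, Gzmc and Klrc1 (1 of 6 lectin-like and NK receptors) were at least 2 times higher in IR. None of 6 granule load genes, 3 docking genes, 5 transcription factors and 4 chemokines was past 2 times either way. Of a list of 14 dissociation and immediate early genes, 13 were counted, and Zfp36 was at least 2 times higher. Hspa1a (376 and 36.4 CPM) and Hsp90aa1 (1897 and 754 CPM) were lower. The part of that list in the granzyme difference was not tested. Gzmc and Zfp36, with 4 and 6 control UMIs, passed the UMI minimum through their 57 and 20 IR UMIs. Their calls thus depended on their being high in IR.

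In effector/memory CD8-like cells the sum was 1.25 times the control (1.17 to 1.33), or 1.16 times (1.06 to 1.27) without Nkg7, and Ifng differed most. Ifng had 16 UMIs in 12 control cells and 99 UMIs in 58 IR cells, at 4.12 times the control level (2.41 to 7.48), and thinned shares were 0.990% and 6.32% of cells. B-like cells had Ifng in 0.359% and 0.834% of cells. Nkg7 (1.37 times, 1.23 to 1.52), Fasl (1.69 times, 1.23 to 2.36) and Klrd1 (1.41 times, 1.15 to 1.73) were higher by less, and Eomes was at 1.33 times (0.985 to 1.81). Gzmm (0.948 times, 0.835 to 1.08), Gzmk (0.816 times, 0.494 to 1.36) and Prf1 (0.974 times, 0.588 to 1.64) had intervals that held 1. So had the lowest ratios, those of Gzma (0.512 times, 0.201 to 1.26, 13 and 10 UMIs) and Gzmb (0.665 times, 0.303 to 1.46, 15 and 15 UMIs). Ifng was 1 of 10 genes at least 2 times higher, where 6.98% of all genes were, and 0 of 10 were at least 2 times lower, where 1.39% of all genes were.

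The CD8-like class was made of different clusters in the libraries. Cluster 5 held 175 control and 204 IR cells and cluster 7, led by Ccl4, held 27 and 177. Within cluster 5 the sum was 0.949 times the control (0.868 to 1.04) and Ifng 1.84 times (0.880 to 4.004, 13 and 21 UMIs). Within cluster 7 the sum was 1.29 times (1.12 to 1.49) and Ifng 4.69 times (1.55 to 23.3, 3 and 78 UMIs). Gzma was at 0.263 times (0.0481 to 0.958, 13 and 3 UMIs) in cluster 5 and had 0 and 7 UMIs in cluster 7. With the IR clusters given their control weights the sum was 1.005 times and Ifng 2.38 times the control.

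Genes of the pathway lists were read in the whole effector/memory CD8-like class and within its clusters. In the class, at least 2 times higher in IR were Tnf and Ltb (2 of 2 counted lymphotoxic factors and death ligands), Ccl3 and Ccl4 (2 of 4 chemokines) and Cd160 (1 of 5 lectin-like and NK receptors), and Fas was lower. Of all genes in the class, 6.98% were at least 2 times higher and 1.39% at least 2 times lower. None of 8 granule load genes, 5 docking genes and 5 transcription factors was past 2 times either way. Of the list of 14 dissociation and immediate early genes, Fos, Jun, Dusp1, Atf3 and Zfp36 were higher and Hspa1a and Hsp90aa1 lower. The list summed to 5764 CPM in control and 6623 CPM in IR, and its part in the Ifng difference was not tested. Within cluster 5, Ccl4 was at least 2 times higher, Xcl1, Fas and Hsp90aa1 were lower, and none of the 14 dissociation and immediate early genes was higher. Within cluster 7, Ltb, Ccl3, Ccl4, Klrk1 and Vamp8 were higher, as were the same 5 genes of that list, and Hspa1a, Hspa1b and Hsp90aa1 were lower. Shares of all genes past 2 times within the clusters are not given. The calls within clusters are therefore a description and cannot be set against a background.

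**Figure D5:**
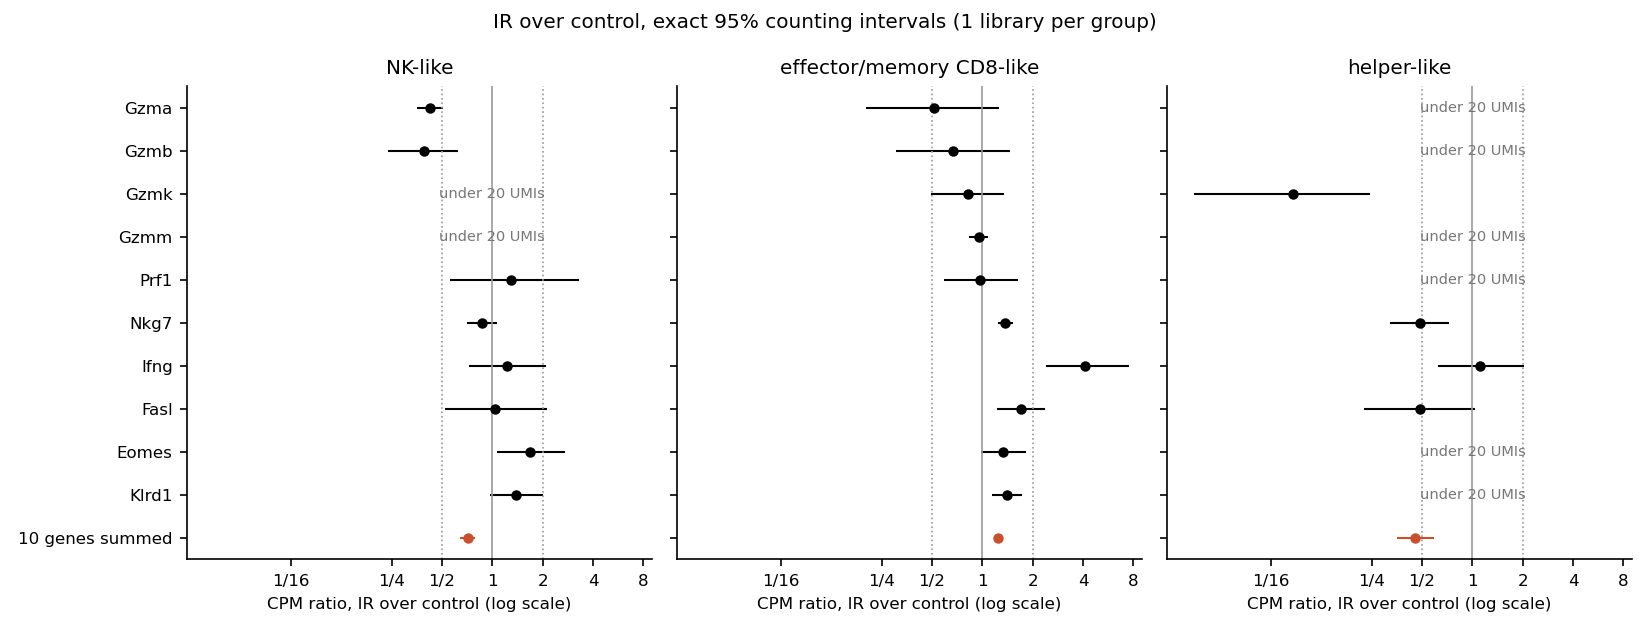
IR over control ratio of CPM (log axis) of each of the 10 genes and of their sum in NK-like, effector/memory CD8-like and helper-like cells, as points with 95% counting intervals, dotted lines marking 2 times either way, for genes with at least 20 UMIs. Gzma is at 0.423 times in NK-like cells, Ifng at 4.12 times in effector/memory CD8-like cells and Gzmk at 0.0849 times in helper-like cells.

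In helper-like cells Gzmk was lower in IR. Gzmk had 26 UMIs in 14 control cells and 4 UMIs in 3 IR cells, at 0.0849 times the control level (0.0215 to 0.245). Over the alternatives this ratio ranged from 0.0250 to 0.188, and the sum from 0.308 to 0.691. Of the 14 control cells, 14 had a Cd3 gene, 6 had Cd8a or Cd8b1, 2 had Cd4, 13 had Nkg7 and 7 had Eomes. Nkg7 was at 0.483 times (0.322 to 0.722) and Fasl at 0.487 times (0.227 to 1.04), Ifng at 1.10 times (0.621 to 2.03), and the sum at 0.457 times (0.356 to 0.586). Of 4 genes with enough UMIs, 3 were at least 2 times lower, where 2.21% of all genes were. At least 2 times higher were 0 of 4, where 8.89% of all genes were. The UMI minimum was set on both libraries together, for all genes alike, and Gzmk passed it through its 26 control UMIs. Red-blood-cell genes were at 16202 CPM in control and 587 CPM in IR helper-like cells, and their part was not tested. From the pathway lists, Ctsw (1 of 8 granule load genes), Klrk1 (the 1 counted receptor) and Ccl5 (1 of 2 chemokines) were at least 2 times lower. Stx11 (1 of 4 docking genes) was higher. Of 14 dissociation and immediate early genes, 4 were lower (Egr1, Hspa1a, Hspa1b and Hsp90aa1) and 0 higher. The part of these genes was not tested either.

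Regulatory-like and naive-like CD8 cells had more of Nkg7 in IR. In regulatory-like cells Nkg7 had 16 and 90 UMIs (2.23 times, 1.30 to 4.07) and Ifng 3 and 26 UMIs (3.44 times, 1.05 to 17.7), and the sum was 1.83 times the control (1.25 to 2.75). These made 2 of 3 genes with enough UMIs at least 2 times higher, where 7.41% of all genes were. At least 2 times lower were 0 of 3, where 2.28% of all genes were. The UMI minimum was set on both libraries together, for all genes alike. Ifng, with 3 control UMIs, passed it through its 26 IR UMIs, so its place among the 3 depended on its being high in IR. The count of 2 was 1 with 10% or no mitochondrial limit, with at least 500 genes in a cell, with the 10 genes kept for clustering and at 3-fold, and 0 without integration. Shares of all genes were not computed under these alternatives. The sum was 1.19 times (0.958 to 1.48) with 10% mitochondrial UMIs and 1.45 times (0.835 to 2.64) without Nkg7. In naive-like CD8 cells Nkg7 had 123 and 450 UMIs (1.97 times, 1.61 to 2.42), in 55.0% and 67.5% of cells (27.5% and 40.2% after thinning), and the sum was 1.79 times the control (1.51 to 2.12), or 1.40 times (1.02 to 1.93) without Nkg7. From the pathway lists, Cst7, Stxbp2, Id2, Cd160, Ltb and Ccl5 were at least 2 times higher there in IR, and Ifngr1 was lower. Of 14 dissociation and immediate early genes, 8 were higher and 2 lower. That list summed to 6851 CPM in control and 10444 CPM in IR. The share of all genes past 2 times in naive-like CD8 cells is not given, and the part of these genes was not tested. B-like cells, used as background, also had a higher sum in IR (1.97 times, 1.38 to 2.84), as had epithelial cells (3.06 times, 1.40 to 7.20), both from levels under 50 CPM. Nkg7 itself was at 3.15 times (1.63 to 6.45, 13 and 37 UMIs) in B-like cells, so a higher Nkg7 level in IR was not particular to the T-cell classes.

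In gamma-delta-like cells the genes moved apart. Gzmb was at 0.666 times the control (0.468 to 0.941), and at 0.225 times (0.117 to 0.403) without the cell of each library with the most Gzmb, and Nkg7 at 2.80 times (1.43 to 5.79), Ifng had 0 control UMIs (a limit of 15.2 CPM at 3 counts) and 10 IR UMIs, of which 8 lay in 1 cell, and the sum was 1.07 times (0.825 to 1.40). The sum was 2.36 times (1.49 to 3.80) without Gzmb and 0.710 times (0.528 to 0.949) with at most 10% mitochondrial UMIs. A list of 5 B-cell markers was at 365 CPM in control and 497 CPM in IR gamma-delta-like cells, against 0 to 33.0 CPM in the other T and NK classes, and 0 of 16 and 0 of 7 cells with Gzmb had the B-cell gene Cd79a. The secretory genes were at 74490 and 43104 CPM, of which Dcpp1 was at 18351 and 1213 CPM, and their part was not tested. The sums in naive-like CD4 cells (1.45 times, 0.983 to 2.18) and in clusters 1 and 3 (1.15 and 1.16 times) had intervals that held 1.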

How the data were processed

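The deposited values are raw UMI counts per gene and barcode, which the authors made with Cell Ranger 3.0.1 on mm10 (GRCm38), as the submitters' processing notes and the methods give it; Seurat 3 is also named there. No column of another series' samples was found (0 columns). The methods' filter was kept: 200 genes or more, and mitochondrial UMIs of 5% or less. Anchor-based integration and clustering of both libraries used R 4.3.3 with Seurat 5.3.0 (2000 variable genes without the 10 genes reported, 30 components, resolution 0.3), and T and NK cells were clustered again (20 components, resolution 0.8). A class took its name from 3 or more fixed markers that had 5 or more UMIs and a CPM 2 times or more that of the remaining cells.

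UMIs were summed per class and library and scaled to CPM. Intervals are 95% exact Poisson (sums), Clopper-Pearson (shares) and conditional binomial (ratios), computed with scipy 1.17.1 and numpy 2.4.6. Because PCR copies are collapsed by UMI and cells are not replicates, the intervals cover counting error only, and no p-value was computed. The limit for a count of 0 is 3 counts. Counts past 2 times took genes with 20 or more UMIs in total over both libraries. A gene could therefore pass on the UMIs of either library alone. Shares were also computed with each cell thinned to 1000 UMIs, leaving out 360 control and 492 IR cells below it. Doublets were scored with Scrublet in scanpy 1.11.5, which called 32 control and 1 IR cells and so did not work in IR; no cell was removed for it. The ratios, their intervals and the 2-fold rule were tested on simulated class sums, and clustering, class naming, thinning and doublet scoring were not. The simulated sums were Poisson counts, as the intervals assume, so uneven counts over cells were not covered.

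The 10 genes, the pathway lists and the markers were chosen with earlier results of these data known. Named were the 10 genes, genes of the lists, and the 5 genes most like the sum and Gzma, Gzmb, Gzmk and Ifng. Alternatives tried were the mitochondrial limit, a minimum of 500 genes, the 10 genes kept for clustering, no integration, other resolutions, totals without abundant genes, TMM factors (edgeR 4.0.16), doublet scores, the UMI minimum and the fold.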

Additional observations from a re-analysis of the deposited data

Results flagged for a closer look

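The 10 genes summed moved in opposite directions in different lymphocyte classes. The IR over control ratio lay below 1, with its counting interval, in helper-like cells (0.457) and NK-like cells (0.711), and above 1 in effector/memory CD8-like cells (1.25), naive-like CD8 cells (1.79), regulatory-like cells (1.83) and the acinar-led T-cell cluster 10 (2.04). The cluster 10 ratio came from 14 control and 29 IR UMIs. Without the top cell of each library its interval was 0.956 to 4.64, which held 1. With the IR clusters given their control weights, the effector/memory CD8-like ratio was 1.005. Without the member with most UMIs, the ratio was 0.985 in NK-like cells (without Gzma), with an interval that held 1, and 1.45 in regulatory-like cells (without Nkg7), where it held 1 too. With 1 library in each condition the difference between classes was not tested.

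Barcodes left out for more than 5% mitochondrial UMIs, which the main comparisons left out and the alternatives with a higher or no mitochondrial limit used, also held these transcripts. There were 481 UMIs in 1260 control barcodes (239 CPM, 218 to 261) and 733 UMIs in 1858 IR barcodes (271 CPM, 251 to 291), an IR over control ratio of 1.13 (1.0095 to 1.275).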

How the results depend on the processing

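No paired analysis was possible because each condition is 1 library. Of 408 values recomputed under the alternatives, 354 kept their place, 53 moved and 1 reversed. A value that kept its place could still differ in size. A ratio was counted as reversed only where the interval of its main result left out 1. The gamma-delta-like sum, at 1.07 with a main interval that held 1 (0.825 to 1.40), was therefore not counted as reversed where it fell below 1. Of 93 summed ratios, 74 stayed within the counting interval of the main result. With IR classes weighted as in control, an alternative chosen after seeing the data, the sum in all T and NK cells reversed to 1.11, and with the IR clusters weighted as in control the effector/memory CD8-like sum was 1.005. With at most 10% mitochondrial UMIs the sums were 0.605 in NK-like, 1.19 in regulatory-like and 0.710 in gamma-delta-like cells, and the IR share of Gzma in NK-like cells was 83.5%. With no mitochondrial limit they were 0.599 in NK-like, 0.308 in helper-like and 0.701 in gamma-delta-like cells. Helper-like cells had 0.601 without integration and 0.691 at a resolution of 0.4. With the top 6% of doublet scores left out, helper-like cells had 0.335 and NK-like cells 0.599. That setting left out 203 control and 317 IR cells, of which 2 and 1 were NK-like, and clustered the rest anew. The 2 effects were not separated, and doublet calling did not work in IR. TMM factors, which shifted all genes of T and NK cells by 0.18 on the log2 scale, gave sums of 0.839 in all T and NK cells and 1.12 in effector/memory CD8-like cells. They also gave 1 gene at least 2 times lower there, without a computed share of all genes beside it. Without the member with the most UMIs in each class, also chosen after seeing the data, the sums were 0.817 in all T and NK cells, 1.16 in effector/memory CD8-like, 1.40 in naive-like CD8 cells (each without Nkg7), 0.985 in NK-like cells (without Gzma) and 2.36 in gamma-delta-like cells (without Gzmb).

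Counts past the fold in regulatory-like cells changed most. Genes at least 2 times higher there were 1 with 10% or no mitochondrial limit, with 500 genes, with the 10 genes kept for clustering and at 3-fold, and 0 without integration. Genes lower there were 1 with 10% and 3 with no minimum of UMIs. At 1.5-fold, effector/memory CD8-like cells had 2 genes higher and 2 lower, NK-like cells 1 higher (also with no minimum of UMIs) and all T and NK cells 1 higher. At 3-fold, all T and NK cells and NK-like cells had 0 lower and helper-like cells 1 lower. The shares of all genes were not computed under these alternatives, so these counts show only how the count depends on the setting.

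Thinned to 1000 UMIs, cells with pairs of genes in control and IR were 2 and 4 for Gzma and Gzmb, 1 and 0 for Gzma and Gzmk, 1 and 2 for Gzmb and Prf1, 5 and 1 for Gzmk and Eomes, 23 and 80 for Nkg7 and Klrd1, and 3 and 34 for Nkg7 and Ifng. The cause of these changes was not tested, apart from thinning, which leaves fewer UMIs in each cell. Alternatives that leave out single cells or shared barcodes were also chosen after seeing the data. Depth limits the sparse genes: Gzmk and Prf1 had few UMIs in each class, and 34 control NK-like cells carry the NK-like control values.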
